A study of Sus scrofa with 9 samples.

Results

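The genes described here encode the constitutive proteasome, the protease that degrades most short-lived and ubiquitin-tagged proteins of a cell, together with factors that assemble, activate or inhibit it. They were taken by name: every row of the pig expression table whose gene symbol has the form PSM, then a letter from A to G, then a number, leaving out the genes of the interferon-inducible immunoproteasome (PSMB8, PSMB9, PSMB10, PSME1 and PSME2). This gave 34 genes of the 22629 rows in the table. The values came from left ventricular heart muscle of wild type, untreated pigs sampled on the day of birth (day 0) and on postnatal days 7 and 15. Each age has 3 libraries, which makes 9. A library is called by its age and its title number, which is 4, 5 and 6 for the newborns, 2, 5 and 6 for day 7, and 1, 2 and 6 for day 15. The labels name no separate animals within an age, so the p-values below measure the spread between these samples, which may be technical.

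The 26S proteasome is a barrel, the 20S core, with a 19S regulatory cap at one or both ends. The core stacks outer rings of alpha subunits, which form the gate, around inner rings of beta subunits, some of which carry the proteolytic sites. The cap has a base, with a ring of ATPases that unfold substrates and thread them into the core, and a lid, which holds the deubiquitinase that removes the ubiquitin chain from the substrate. Dedicated chaperones build the core and the cap before they join, and other activators can bind the core in place of the cap. In heart muscle the ubiquitin-proteasome system is known for the turnover of contractile proteins and of damaged or misfolded proteins.

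Values are in TPM, a length-scaled unit of transcript abundance, each a share of its library's total, so levels can be compared between genes. TPM does not show how deeply a library was sequenced. A single unnamed gene, ENSSSCG00000032277, took from 24.0% (newborn replicate 6) to 46.0% (day 15 replicate 1) of the total, which moves the share left for all other genes. In newborn replicate 6 this left more for the others, and 27 of the 32 members tested were at their highest of the 9 libraries there. Day 15 replicate 2 stood apart by its immune cell markers. The summed TPM of 9 macrophage markers was 278 there, against 64.0 and 107 in day 15 replicates 1 and 6, and that of 7 lymphocyte markers was 43.9 against 7.71 and 10.8. The same library was the highest of the day 15 libraries for each of the 32 members tested, and it held 30.6% of its total in the unnamed gene, against 46.0% and 35.2%. The labelled tissue matched its markers, with a summed TPM of 31431 to 42789 for the 7 cardiomyocyte markers found in the table. In bulk tissue, fewer cells of a type and less RNA per cell cannot be told apart.

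Tests were made with limma on log2(TPM + 1) over all 12268 genes with at least 1 TPM in at least 3 libraries, and "rose" and "fell" are used for an adjusted p under 0.05. Of the 34 members, 32 passed this filter. The other two, PSMA8, an alpha subunit known from the testis, and PSMB11, the beta subunit of the thymus proteasome, were listed at 0 in all 9 libraries. A further 5 subunits (PSMA2, PSMA5, PSMD4, PSMD7 and PSMD9) are listed by Ensembl identifier only, so they fall outside the 34 and are given separately. PSMB5, PSMG1, PSMG2 and PSMG4 were not analysed here.

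The newborn ventricle held the most proteasome transcript. The summed TPM of the 34 members was 1446, 1458 and 1629 in newborn replicates 4, 5 and 6. It was 1178, 1182 and 1021 in day 7 replicates 2, 5 and 6, and 967.9, 1294 and 1045 in day 15 replicates 1, 2 and 6. No library of day 7 or day 15 reached the lowest newborn library, while the ranges of day 7 and day 15 overlapped. The means were 1511 ± 102 TPM at day 0, 1127 ± 91.6 TPM at day 7 and 1102 ± 170 TPM at day 15 (± SD over 3 libraries, as for all means that follow). This sum was 0.746 of the newborn mean at day 7 and 0.730 of it at day 15. The newborn libraries were also the highest after median-of-ratios scaling, which sets the typical gene equal between libraries, but the ratio at day 15 was then 0.857. Since the members were chosen with earlier results known, these sums are given as a description and have no test.

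**Figure D1:**
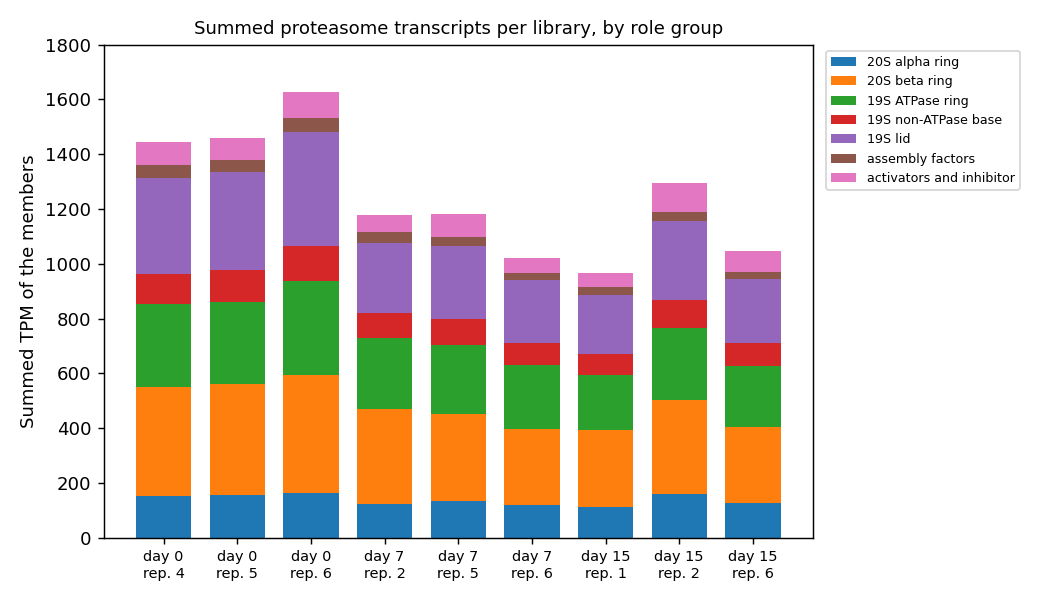
Summed TPM of the 34 members in each library (vertical axis, from 0), stacked by role group, for 3 libraries per age. The newborn bars reach 1446 to 1629 TPM, above each day 7 bar (1021 to 1182 TPM) and each day 15 bar (967.9 to 1294 TPM).

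The mean summed TPM of every role group was lower at day 7 than at day 0, by unequal amounts. These sums hold the 34 members only, so the order below is not that of whole structures. They leave out the alpha genes PSMA2 and PSMA5, whose means changed by -37.0% and -32.4% at day 7. At day 15 these were -30.1% and -33.5%. The sums also lack the base gene PSMD4 (-15.4% and -12.1%) and the lid gene PSMD7 (-30.8% and -30.0%). The assembly factor PSMD9 (-28.6% and -11.0%) is missing too. The summed TPM of the lid genes changed by -33.1% from day 0 to day 7, that of the assembly factors by -29.5%, the base subunits without ATPase activity by -24.5%, the beta ring by -23.6%, the activators and inhibitor by -23.4%, the ATPase ring by -21.3% and the alpha ring by -20.4%. From day 0 to day 15 the lid changed by -34.2% and the assembly factors by -38.7%, whereas the alpha ring changed by -14.6% and the activators and inhibitor by -10.5%. These last values rest on single libraries. Without day 15 replicate 2 they were -23.2% and -26.5%, without day 15 replicate 1 they were -8.02% and 3.17%, and without newborn replicate 6 that of the activators and inhibitor was -5.82%. The summed 19S transcripts exceeded the summed 20S transcripts in every library, with a ratio of 1.26 to 1.5. The 19S sum held 6 ATPases, 2 other base genes and 7 lid genes. The 20S sum held 5 alpha and 6 beta genes with a signal. The ratio thus depends on how many genes each sum holds, and does not show a higher level per gene. Within each structure, where subunits are known to be built in at equal numbers, transcript levels differed widely between genes. Among the 6 ATPases the mean over all libraries ran from 15.9 TPM for PSMC1 to 105 TPM for PSMC5, and among the 6 beta subunits measured from 16.6 TPM for PSMB3 to 110 TPM for PSMB7. The 5 alpha subunits measured lay closer together, from 18.6 TPM for PSMA4 to 38.2 TPM for PSMA1.

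**Figure D2:**
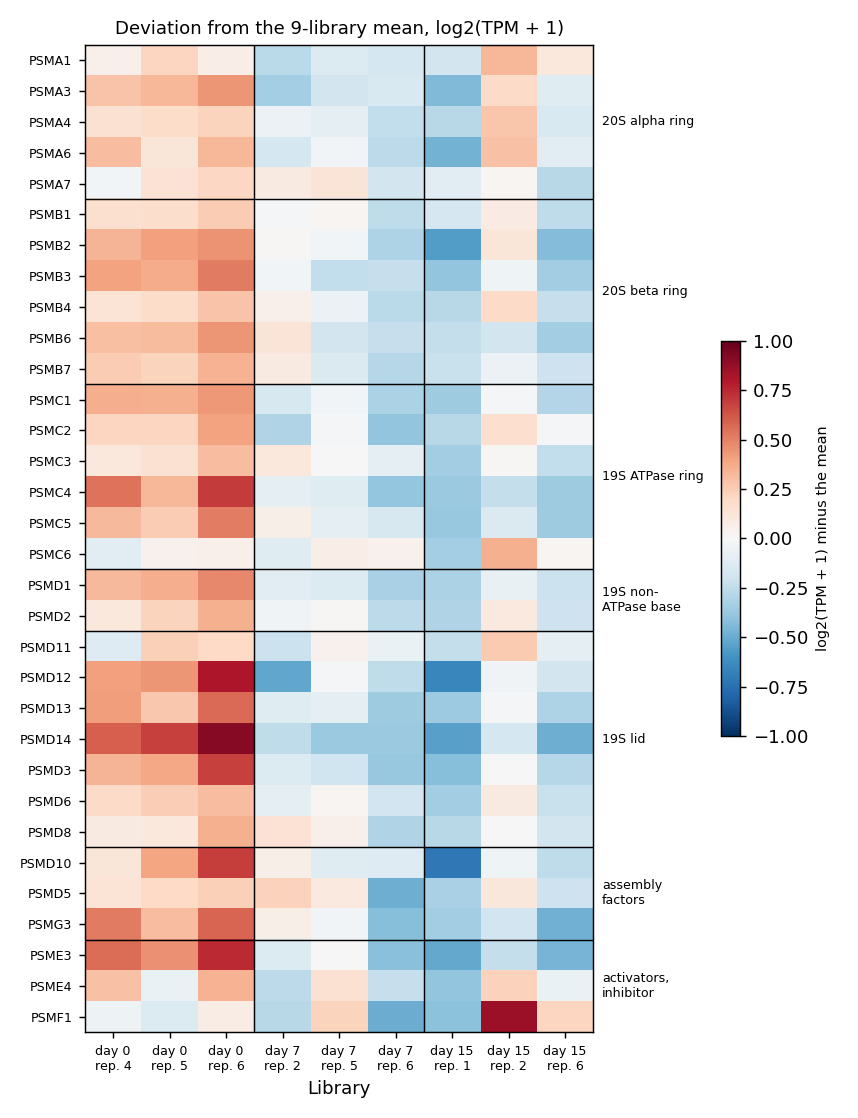
Each row is 1 of the 32 members tested and each column a library, with colour for the difference of log2(TPM + 1) from that gene's 9-library mean. The newborn columns are mostly red, with PSMD14 the most intense row, and PSMC6 and PSMF1 do not follow that pattern. These and PSMA1, PSMA4 and PSMD11 are the 5 members with their highest value in day 15 replicate 2.

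Between birth and day 7 the proteasome genes that passed the test were all lower, most of them in the cap. Of the 32 members tested, 10 fell and 0 rose, while 8.88% of all genes tested fell and 7.67% rose. The log2 fold change was negative for 31 of the 32 members and for 6598 of the 12268 genes tested. Its median was -0.42 over the members, against -0.04 over all genes tested. In 24 of the 32 members every day 7 library lay below every newborn library, which held for 23.8% of all genes tested. The number past the threshold depended on single libraries. It was 1 without newborn replicate 4, without newborn replicate 6 or without day 7 replicate 6, where 3.23%, 1.60% and 2.89% of all genes fell. It was 4, 5 and 5 without day 7 replicate 2, day 7 replicate 5 and day 15 replicate 6 (the last of these through the shared estimate of spread), where 5.13%, 6.24% and 6.42% of all genes fell. After median-of-ratios scaling it was 16, and 16.0% of all genes fell. The median stayed between -0.49 and -0.35 when each library was left out in turn.

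The lid held 4 of the 10 genes that fell, out of 7 lid genes tested. PSMD14 is the metalloprotease that cuts ubiquitin chains off substrates at the entrance of the core. It measured 50.4, 53.8 and 62.9 TPM in newborn replicates 4, 5 and 6, and 27.5, 25.3 and 25.3 TPM in day 7 replicates 2, 5 and 6. The 2 ages did not overlap, and the 3 day 7 libraries lay close together. Its mean went from 55.7 ± 6.47 to 26.1 ± 1.26 TPM, or -1.06 ± 0.17 as log2 fold change and its SE (limma adjusted p = 0.00447), and it was past the threshold in all 20 alternative settings. PSMD12, a scaffold subunit of the lid, measured 21.5, 22.1 and 28.6 TPM in the newborns and 10.8, 15.9 and 13.2 TPM at day 7 (-0.81 ± 0.21, limma adjusted p = 0.0251, past the threshold in 14 of 20 settings). PSMD3, another scaffold subunit, measured 66.0, 68.2 and 84.1 TPM and then 47.2, 45.1 and 39.7 TPM (-0.71 ± 0.18, limma adjusted p = 0.0211, 16 of 20 settings). Neither gene overlapped between these ages. PSMD13, the most abundant lid gene, fell as well, with means of 105 ± 10.8 and 68.7 ± 6.76 TPM (-0.61, limma adjusted p = 0.0324). The other lid genes, PSMD6, PSMD8 and PSMD11, had log2 fold changes of -0.34, -0.22 and -0.18 and did not pass.

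In the base, 2 of the 6 ATPases fell. PSMC4 measured 25.1, 21.6 and 28.1 TPM in the newborns and 15.8, 15.5 and 12.7 TPM at day 7, with no overlap (-0.73 ± 0.17, limma adjusted p = 0.0162, 16 of 20 settings). PSMC1, whose tail helps to open the gate of the core, went from 20.7 ± 0.670 to 13.8 ± 1.5 TPM (-0.55, limma adjusted p = 0.0417, 12 of 20 settings). PSMC2 and PSMC5, the latter the most abundant ATPase transcript, had log2 fold changes of -0.52 and -0.43 and did not pass (limma adjusted p = 0.0667 and 0.0793). PSMC6 had the smallest difference of the ring, at 45.2, 50.3 and 50.7 TPM in the newborns and 44.9, 51.3 and 50.3 TPM at day 7, which overlap throughout (0.00 ± 0.19, limma adjusted p = 0.993). Of the base subunits without ATPase activity, the large scaffold PSMD1 fell from 38.9 ± 2.28 to 25.8 ± 2.14 TPM (-0.58, limma adjusted p = 0.0296), and its relative PSMD2 measured 80.4 ± 7.15 and 64.3 ± 6.40 TPM (limma adjusted p = 0.206).

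In the core, 1 of 6 beta genes and 0 of 5 alpha genes fell, while 8.88% of all genes tested fell. These counts lie near that share, and no difference between role groups was tested. Among 6 beta subunits tested, PSMB3, a structural subunit without a proteolytic site, fell from 22.1 ± 1.28 to 14.2 ± 1.33 TPM (-0.60, limma adjusted p = 0.0314). The catalytic subunits measured here were PSMB6, which cuts after acidic residues, and PSMB7, which cuts after basic ones. PSMB6 measured 47.6, 48.1 and 52.7 TPM in the newborns and 42.3, 33.8 and 32.7 TPM at day 7 (-0.44, limma adjusted p = 0.0779). PSMB7 measured 130, 127 and 138 TPM and then 116, 98.3 and 89.1 TPM (-0.39, limma adjusted p = 0.109). Neither passed, although all day 7 libraries lay below all newborn libraries for both, as they did for each of the 6 beta genes. The same held for 23.8% of all genes tested. No alpha gene of 5 passed. The nearest was PSMA3, at 27.8 ± 1.61 and 18.3 ± 1.30 TPM (-0.58, limma adjusted p = 0.0502), and the smallest difference was that of PSMA7 (-0.10, limma adjusted p = 0.712).

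The remaining members build the particle or bind it from outside. PSME3, or PA28 gamma, a nuclear activator that opens the core without ubiquitin, measured 32.7, 30.2 and 37.2 TPM in the newborns and 19.7, 21.8 and 16.1 TPM at day 7, with no overlap (-0.77 ± 0.18, limma adjusted p = 0.0152, 16 of 20 settings). PSMG3, a chaperone that starts the alpha ring, fell from 30.9 ± 3.12 to 20.2 ± 3.61 TPM (-0.60, limma adjusted p = 0.0427, 12 of 20 settings). The chaperones of the 19S base, PSMD5 and PSMD10 (gankyrin), had log2 fold changes of -0.25 and -0.47 and did not pass (limma adjusted p = 0.426 and 0.149). PSMD10 was also the least abundant member with a signal, at 3.26 ± 0.849 and 2.05 ± 0.233 TPM, where adding 1 TPM before the logarithm understates a change. PSME4 (PA200), an activator known from chromatin and the male germ line, measured 15.5 ± 2.45 and 12.4 ± 2.20 TPM (limma adjusted p = 0.317). PSMF1, the PI31 protein that inhibits the core in the test tube, measured 37.8 ± 2.84 and 34.9 ± 9.48 TPM (limma adjusted p = 0.745).

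**Figure D3:**
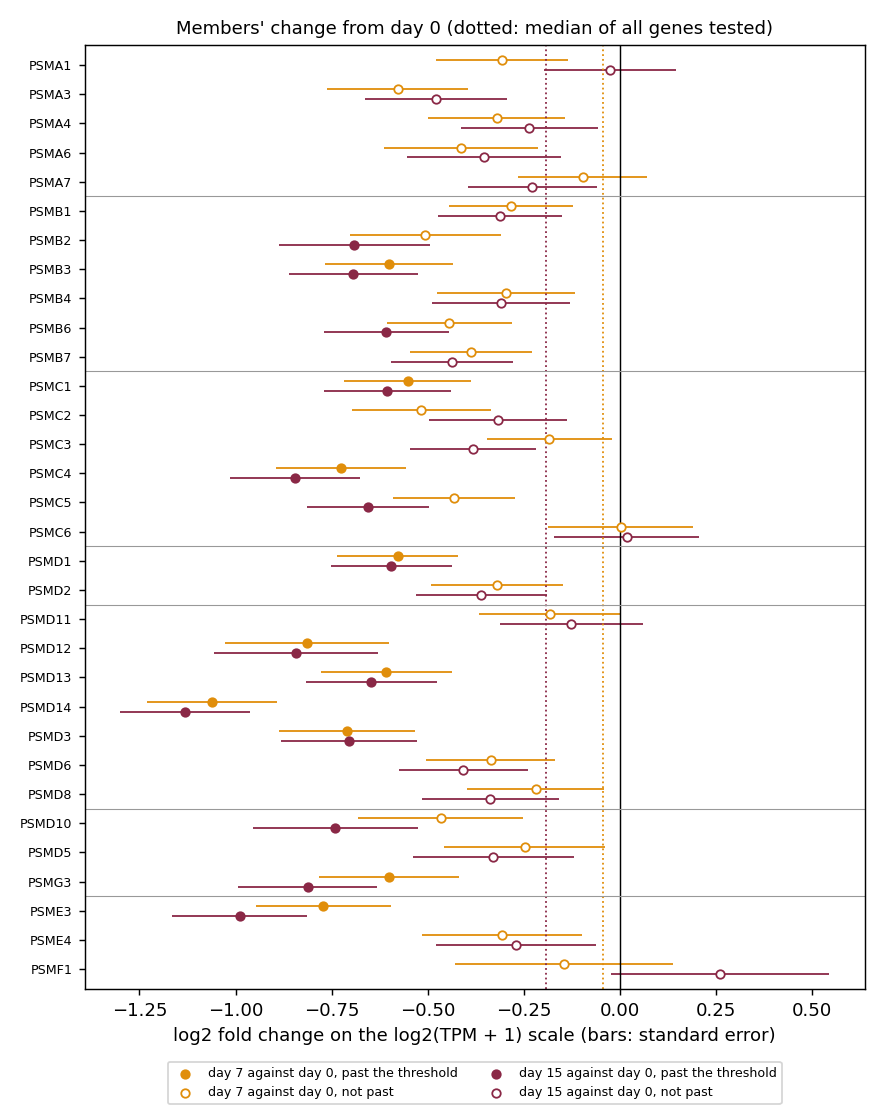
Log2 fold change with standard error (horizontal axis) of each of the 32 members tested, at day 7 (orange) and day 15 (dark red) against the same newborn libraries, with filled points past the threshold. Of the points, 10 are filled at day 7 and 14 at day 15, all on the negative side, and the dotted medians of all genes tested lie at -0.04 and -0.19.

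Over the second week, from day 7 to day 15, no member passed (0 of 32), as few genes did at all. Of all genes tested 0.171% passed in either direction and 0.130% fell. At an unadjusted p under 0.05, 0 of the 32 members and 1565 of the 12268 genes differed. The median log2 fold change of the members was -0.05, against -0.15 over all genes tested. In 0 members did every day 15 library lie below every day 7 library, which held for 17.9% of all genes. The largest positive difference was that of PSMF1, with 31.9, 45.5 and 27.3 TPM at day 7 and 29.0, 71.2 and 45.3 TPM in day 15 replicates 1, 2 and 6 (0.41 ± 0.28, limma adjusted p = 0.573). Its day 15 mean rests on replicate 2, the library with the high immune cell markers, and the part of those cells in this value was not tested. The largest negative difference was that of PSMD10 (-0.27, limma adjusted p = 0.617). The sign of the median was not stable, since it was 0.14 after median-of-ratios scaling and 0.03 with the unnamed most abundant gene left out.

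The difference between the 2 weekly steps was tested directly, as the first step minus the second. It passed for 0 of 32 members, while 1.92% of all genes passed and 0.391% passed with a negative sign. At an unadjusted p under 0.05, 3 of the 32 members and 2201 of the 12268 genes differed. The median over the members was -0.37, against 0.09 over all genes. The value was negative for 30 of 32 members and for 5399 of the 12268 genes. PSMD14 had the largest value, -0.99, with a limma adjusted p of 0.103. After median-of-ratios scaling 5 members passed (PSMD14, PSMC2, PSMD3, PSMA3 and PSMD12), and PSMD14 alone did so after either way of leaving out abundant genes. The shares of 1.92% and 0.391% belong to the deposited values, and those after the other scalings are not given here.

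Day 15 was then compared with day 0. This comparison uses the same newborn libraries as the first one, so the 2 are not independent. Of the 32 members, 14 fell and 0 rose, while 18.4% of all genes tested fell and 5.53% rose. The median was -0.42, against -0.19 over all genes. It was -0.19 after median-of-ratios scaling, -0.17 without mitochondrial and the 20 most abundant genes, and -0.27 without the most abundant gene, where the medians over all genes were 0.01, 0.02 and -0.07. In 23 members all day 15 libraries lay below all newborn libraries, which held for 30.5% of all genes. Leaving out day 15 replicate 2 gave 17 members that fell, with a median of -0.54, where 23.0% of all genes fell. Leaving out newborn replicate 6 gave 3 (PSMD14, PSME3 and PSMC4, where 5.04% of all genes fell), and leaving out day 15 replicate 6 gave 4 (these and PSMD12, where 8.32% of all genes fell).

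By role, 4 of 7 lid genes, 3 of 6 ATPases, 3 of 6 beta subunits and 2 of 3 assembly factors fell. Of the other base subunits 1 of 2 fell, of the activators and inhibitors 1 of 3, and of the alpha subunits 0 of 5. Over all genes tested, 18.4% fell. Several of these groups are too small to be read against that share, and no difference between roles was tested. PSMD14 measured 22.3, 29.1 and 23.3 TPM in day 15 replicates 1, 2 and 6, each below its lowest newborn library of 50.4 TPM (-1.13 ± 0.17, limma adjusted p = 0.00196, past the threshold in 20 of 20 settings). PSME3 measured 15.0, 18.4 and 15.6 TPM (-0.99 ± 0.18, limma adjusted p = 0.00405, 19 of 20 settings). PSMC4 measured 12.9, 14.2 and 13.1 TPM (-0.84 ± 0.17, limma adjusted p = 0.00647, 19 of 20 settings). These 3 genes did not overlap with the newborns.

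PSMC5, an ATPase, measured 128, 122 and 147 TPM in the newborns and 78.6, 92.6 and 80.2 TPM at day 15 (-0.66, limma adjusted p = 0.0133). PSMB6, the catalytic subunit for acidic residues, measured 32.4, 33.8 and 30.1 TPM at day 15 (-0.61, limma adjusted p = 0.0199, 14 of 20 settings). PSMB2, a beta subunit without a proteolytic site, fell from 67.5 ± 2.57 to 42.3 ± 11.4 TPM (-0.69, limma adjusted p = 0.0253), and PSMB7 measured 97.2 ± 6.28 TPM and did not pass (limma adjusted p = 0.0641). The chaperone PSMG3 measured 17.1 ± 1.85 TPM (-0.81, limma adjusted p = 0.00968), and gankyrin, PSMD10, 1.57 ± 0.585 TPM (-0.74, limma adjusted p = 0.0278). The other members that fell were PSMB3, PSMC1, PSMD1, PSMD3, PSMD12 and PSMD13, with log2 fold changes of -0.59 to -0.84. A negative log2 fold change was seen in 30 of the 32 members and in 7984 of the 12268 genes tested. Of the 18 members that did not pass, 16 had a negative log2 fold change. The exceptions were PSMC6, at 38.4, 62.9 and 49.5 TPM (0.02, limma adjusted p = 0.955), and PSMF1 (0.26, limma adjusted p = 0.523).

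**Figure D4:**
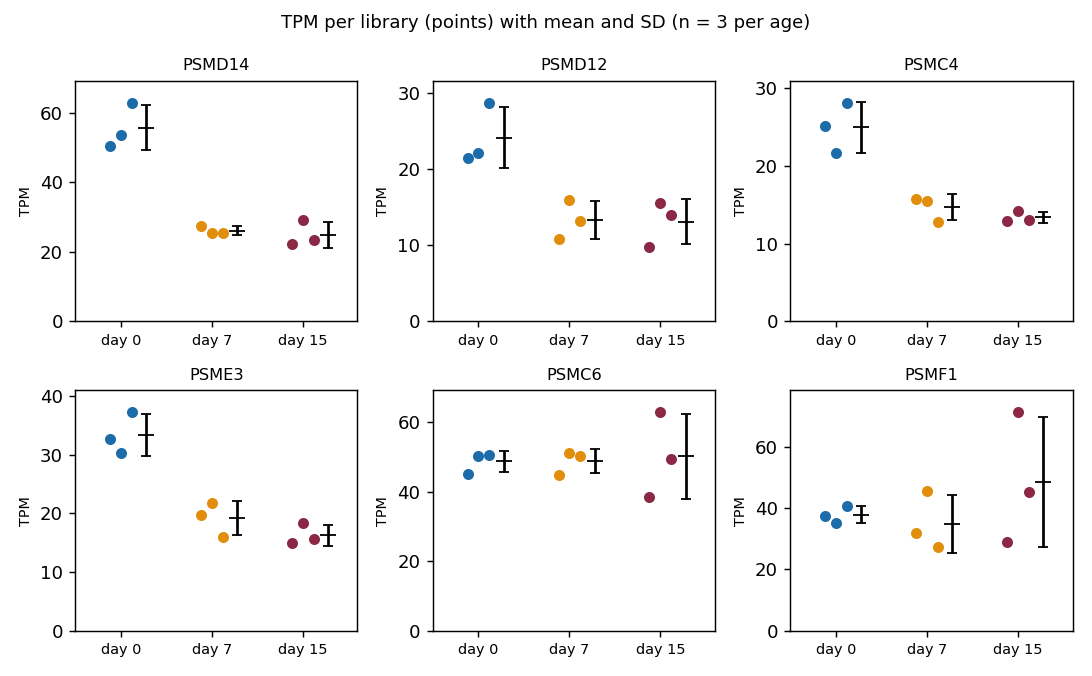
TPM of 6 members in each library (points), with the mean and SD of the 3 libraries of an age beside them. PSMD14, PSMD12, PSMC4 and PSME3 lie lower at day 7 and day 15 than in any newborn library, while PSMC6 and PSMF1 overlap between ages, with their highest value in day 15 replicate 2.

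The 5 subunits listed by identifier were fitted in the same model. PSMD7, which forms a dimer with PSMD14 in the lid, went from 36.1 ± 3.17 TPM in the newborns to 25.0 ± 1.81 TPM at day 7 (-0.51, limma adjusted p = 0.0456) and 25.3 ± 2.11 TPM at day 15 (-0.50, limma adjusted p = 0.0400). These calls held in 12 and 10 of 20 settings. The alpha subunits PSMA2 and PSMA5 had log2 fold changes of -0.65 and -0.55 at day 7 (limma adjusted p = 0.0548 and 0.0915) and of -0.53 and -0.60 at day 15, and did not pass. PSMD4, a receptor for ubiquitin chains, and PSMD9, a chaperone of the base, did not pass at either age, with -0.25 and -0.43 at day 7.

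Ratios between subunits of one library do not depend on how that library is scaled. They were taken for pairs known to bind each other or to replace each other, a choice made with the values known, and are given as descriptions. PSMD14 over its partner PSMD7 was 1.43, 1.60 and 1.59 in newborn replicates 4, 5 and 6, then 1.07, 0.960 and 1.11 at day 7, and 0.959, 1.06 and 0.929 at day 15. The newborn ratios lay above all others, so PSMD14 was lower after birth than in the newborns also relative to its own dimer partner. Of the ATPase pairs, PSMC4 over PSMC5 was 0.176 to 0.196 in the newborns, 0.139 to 0.162 at day 7 and 0.153 to 0.164 at day 15. PSMC6 over PSMC3 was 0.743 to 0.827 in the newborns and 0.896 to 1.14 at day 15, without overlap, and 0.760 to 0.980 at day 7, overlapping both. PSMC2 over PSMC1 was 1.16 to 1.27, 1.17 to 1.30 and 1.38 to 1.60 at the 3 ages. In each of these pairs the ratios of day 0 and day 15 did not overlap. Since the pairs were picked with the values known, they say nothing of the other members.

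The immunoproteasome subunits replace constitutive ones in the core under interferon and in immune cells. PSMB9, which takes the place of PSMB6, measured 3.55, 3.99 and 3.87 TPM in the newborns, 9.59, 20.3 and 10.5 TPM at day 7 and 7.69, 35.1 and 12.3 TPM at day 15. It rose at both ages (1.52 ± 0.42, limma adjusted p = 0.0313 at day 7, and 1.75 ± 0.42, limma adjusted p = 0.0129 at day 15). The ratio of PSMB9 to PSMB6 was 0.0735 to 0.0830 in the newborns, 0.227 to 0.601 at day 7 and 0.237 to 1.04 at day 15, where only replicate 2 exceeded 1. PSMB8 rose at day 15, from 8.52 ± 1.08 to 41.7 ± 28.5 TPM (1.95, limma adjusted p = 0.00924). Without day 15 replicate 2 the day 15 values were 1.16 for PSMB9 and 1.44 for PSMB8, both past the threshold (limma adjusted p = 0.0169 and 0.0170). PSMB9 passed in 13 of 20 settings at day 7 and 19 of 20 at day 15, and PSMB8 in 20 of 20 at day 15. PSMB9 at day 7 did not pass with a pseudocount of 5 TPM, without the filter or in a robust fit (limma adjusted p = 0.0556, 0.0875 and 0.0700). It also did not pass without newborn replicate 4 or 6 or day 7 replicate 5 or 6 (limma adjusted p = 0.0906, 0.105, 0.0889 and 0.0626), nor did PSMB9 at day 15 without newborn replicate 6 (limma adjusted p = 0.0556). Of all genes tested, 7.67% rose at day 7 and 5.53% at day 15. PSMB10, which replaces PSMB7, and the activator subunits PSME1 and PSME2 did not pass (log2 fold changes of 0.47, 0.41 and 0.46 at day 15).

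Within day 7 and within day 15, PSMB8 and PSMB9 were highest in the library with the most macrophage marker transcript. The summed TPM of the 9 macrophage markers was 67.6 to 81.8 in the newborns, 71.8 to 127 at day 7 and 64.0 to 278 at day 15, with the highest value of each older age in day 7 replicate 5 and day 15 replicate 2. Of the 9 markers, 1 rose at day 7 (CSF1R) and 2 at day 15 (CSF1R and C1QC), where 7.67% and 5.53% of all genes rose. The list did not move one way: CD163, MRC1 and CD14 were lower in every day 7 library than in every newborn library, and CD163 measured 19.8, 20.2 and 21.4 TPM in the newborns and 7.19, 13.7 and 6.90 TPM at day 7 (-1.12, limma adjusted p = 0.0799). Of the 7 lymphocyte markers, 4 were tested and 1 rose, at day 15 (PTPRC), and the T cell genes CD3E and CD3D stayed between 0.0374 and 1.23 TPM in all libraries. The part of these cells in the immunoproteasome values was not tested.

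**Figure D5:**
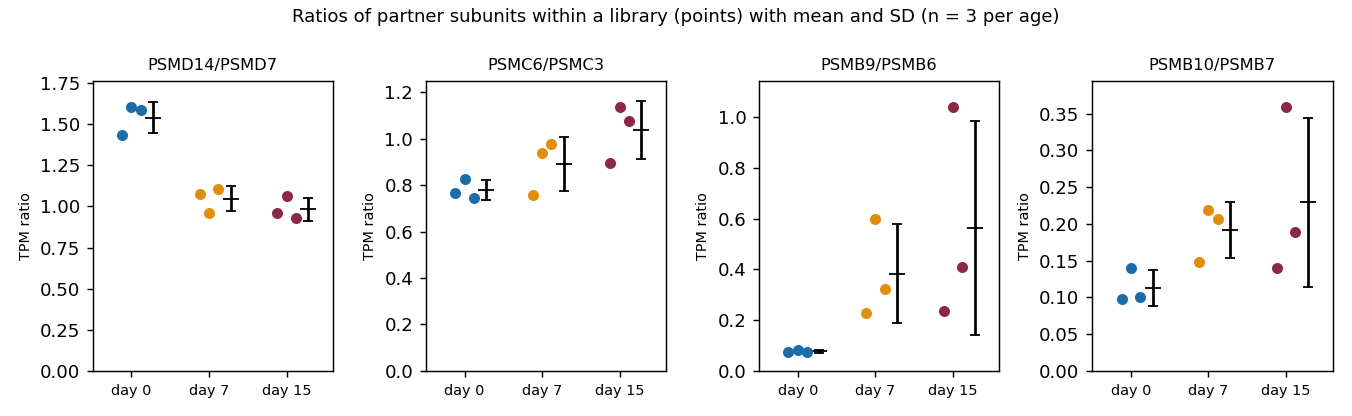
TPM ratio of 2 subunits within each library (points), with mean and SD of the 3 libraries of an age. PSMD14/PSMD7 is 1.43 to 1.60 in the newborns and 0.929 to 1.11 later, and PSMB9/PSMB6 is 0.0735 to 0.0830 in the newborns and 0.227 or more later.

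Among other genes of the pathway, those that bind the proteasome were taken first. Of 14 further proteasome parts and shuttle factors tested, 2 fell and 0 rose at day 7, and 2 fell and 0 rose at day 15. Both times these were PAAF1, a chaperone of the ATPase ring, and POMP, the maturation factor of the core. Over all genes, 8.88% fell and 7.67% rose at day 7, and 18.4% fell and 5.53% rose at day 15. The counts of this list thus lie near the share over all genes. The log2 fold change was negative for all 14 genes at both ages, and for 6598 and 7984 of the 12268 genes tested. The medians of the list were -0.27 and -0.33, against -0.04 and -0.19 over all genes. PAAF1 measured 13.6, 15.9 and 14.0 TPM in the newborns, 8.14, 7.91 and 7.02 TPM at day 7 and 6.77, 8.53 and 5.93 TPM at day 15, without overlap (-0.83, limma adjusted p = 0.0110, and -0.95, limma adjusted p = 0.00467), and passed in all 20 settings at both ages. POMP fell too, with means of 54.3 ± 3.68, 37.0 ± 0.950 and 36.6 ± 6.45 TPM at the 3 ages (limma adjusted p = 0.0465 and 0.0298, in 11 and 13 of 20 settings). The most abundant of this list at birth, the deubiquitinase UCHL5, did not pass (-0.29 and -0.45).

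The transcription factor NFE2L1, known to drive proteasome genes when the proteasome is inhibited, measured 53.5, 54.5 and 73.4 TPM in the newborns and 56.9, 72.0 and 54.1 TPM at day 7, which overlap (0.02, limma adjusted p = 0.963). Its list, with NFE2L2, NGLY1, VCP and the VCP cofactors UFD1 and NPLOC4, had 0 of 6 genes past the threshold at either age. Of 5 ubiquitin and ubiquitin-activation genes, RPS27A, which encodes ubiquitin fused to a ribosomal protein, fell at both ages (-0.56 and -0.88, limma adjusted p = 0.0357 and 0.00448). The polyubiquitin gene UBB, the most abundant of this list, measured 910 ± 114, 1389 ± 163 and 1437 ± 533 TPM and did not pass (limma adjusted p = 0.0895 and 0.0772). Beside the counts of both lists, 8.88% of all genes fell and 7.67% rose at day 7, and 18.4% fell and 5.53% rose at day 15.

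Of 9 muscle ubiquitin ligase genes, FBXO32 (atrogin-1) rose at day 7 (1.22, limma adjusted p = 0.0385, 13 of 20 settings) and TRIM54 fell (-0.93, limma adjusted p = 0.0273, 14 of 20 settings). At day 15, FBXO21 fell (-0.59, limma adjusted p = 0.0319). The most abundant, TRIM55, did not pass at either age. Over all genes, 7.67% rose and 8.88% fell at day 7, and 5.53% rose and 18.4% fell at day 15. The counts of the ligase list lie near those shares.

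Other complexes of many subunits were set beside the proteasome. The COP9 signalosome and the translation initiation factor eIF3 are related in architecture to the 19S lid, and the TRiC chaperonin folds actin and tubulin. At day 7, 1 of 9 COP9 genes fell, with a median of -0.31, 1 of 12 eIF3 genes, with a median of -0.39, and 5 of 7 TRiC genes, with a median of -0.63, beside 10 of 32 proteasome genes and a median of -0.42. At day 15 the counts were 2 of 9, 4 of 12 and 6 of 7, with medians of -0.38, -0.44 and -0.82, beside 14 of 32 and -0.42. No gene of these 3 lists rose at either age. As examples, COPS3 fell by 0.70 and 0.90, EIF3I by 0.75 and 1.17, and TCP1, a TRiC subunit, by 0.84 and 1.04 on the log2(TPM + 1) scale at day 7 and day 15. Of all genes tested, 8.88% fell at day 7 and 18.4% at day 15, so the COP9 counts at both ages and the eIF3 count at day 7 lie near the share over all genes. No test of a difference between these lists was made.

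Some markers of other cell types and of dividing cells shifted over the same ages. Over all genes, 8.88% fell and 7.67% rose at day 7, and 18.4% fell and 5.53% rose at day 15. A list with 1 gene called lies near those shares. Of 9 genes of dividing cells tested, 6 rose and 0 fell at day 7, with a median of 1.42, and 0 rose at day 15. Their summed TPM was 16.5 to 80.4 in the newborns and 84.5 to 115 at day 7, with newborn replicate 5 at 80.4 against 16.5 and 22.5 in replicates 4 and 6. The members' median deviations from the 9-library mean were 0.27, 0.24 and 0.38 in newborn replicates 4, 5 and 6. Of 6 endothelial markers, 2 rose (PECAM1 and CDH5) and 1 fell (EMCN) at day 7, and 1 fell at day 15 (EMCN). Their summed TPM was 194 to 226 in the newborns, 287 to 309 at day 7, without overlap, and 183 to 214 at day 15. Of 7 fibroblast markers, 1 rose at day 7 (COL3A1) and 0 passed at day 15, with a summed TPM of 917 to 1407, 1587 to 2168 and 1133 to 1439 at the 3 ages. Of 7 cardiomyocyte markers, 1 rose at each age (CKM) and 0 fell. Of 6 smooth muscle and pericyte markers, 1 rose and 1 fell at day 7, and 1 rose and 4 fell at day 15, with a summed TPM of 318 to 479 in the newborns and 185 to 226 at day 15. The part of these shifts in the proteasome values was not tested.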

How the data were processed

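The authors deposited 1 table of TPM values, in which each value is a share of its library scaled by transcript length, from stranded mRNA libraries, with 22629 rows and 1 column for each of 9 libraries. Per the submitters' processing notes, Trimmomatic 0.33, HISAT2 2.0.5 and kallisto 0.43.1 were used, with no role or order given. For genome build, annotation and use of strand, nothing is stated in the sources used here. TPM keeps no record of depth, so no counting interval is given.

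Genes with at least 1 TPM in at least 3 libraries entered as log2(TPM + 1), so the pseudocount is 1 TPM, and were fitted with limma 3.58.1 in R 4.3.3 (1 mean per age, all 9 libraries, mean-variance trend, 6 residual degrees of freedom). P-values were adjusted by the Benjamini-Hochberg method over all 12268 genes, with a threshold of 0.05. The step was tested on simulated data. Gene-wise permutation of 3 against 3 libraries cannot reach 0.05.

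The 20 alternative settings (19 for PSMD10, which has under 5 TPM) were pseudocounts of 0.1 and 5 TPM, no filter or a filter at a mean of 5 TPM, scaling by median of ratios, TPM rescaled without the most abundant gene or without the mitochondrial genes and the top 20 genes, a fit without trend, a robust fit, the 2 ages alone, the replicate number as a block, and each library left out. The members and lists were chosen with earlier results of these data known. Members past the threshold, the extremes in abundance of each role group, the measured catalytic subunits and the assembly factors, activators and inhibitor were named. From each other list, genes past the threshold (up to 4 per direction) and the most abundant were eligible. Symbols of rows listed by Ensembl identifier came from a table of gene names. Other members that did not pass were named after their values were seen.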

Additional observations from a re-analysis of the deposited data

How the results depend on the processing

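For day 7 against day 0, the number of members past the threshold was 16 after median-of-ratios scaling, 1 with the replicate block, and 1 to 12 with each library left out, where 16.0%, 4.34% and 1.60% to 12% of all genes fell. For day 15 against day 0 it was 1 with the replicate block and 3 to 17 with each library left out, where 4.26% and 5.04% to 23.0% of all genes fell. PSMD14 was the 1 member past the threshold with the block in both comparisons. For the difference between steps it was 5 after median-of-ratios scaling and 1 with either set of abundant genes left out. The shares over all genes in these settings are not given here. For day 15 against day 7 the number of members past the threshold was 0 in each setting. No member or listed companion gene past the threshold changed sign in any setting tried. The median of all genes tested moved from -0.19 to 0.01 at day 15 against day 0, and from -0.15 to 0.01 at day 15 against day 7, after median-of-ratios scaling. Relative to it the members' median was -0.23 and 0.10 on the deposited values. The members' median at day 7 against day 0 was -0.26 without mitochondrial and the 20 most abundant genes. At day 15 against day 0 it was -0.19 after median-of-ratios scaling, -0.17 without mitochondrial and the 20 most abundant genes, and -0.27 without the most abundant gene, and at day 15 against day 7 it was 0.14 after median-of-ratios scaling. The median difference between steps was -0.55 with the replicate block. The ratio of summed TPM at day 15 to day 0 was 0.857 after median-of-ratios scaling. Counts of members lower in every library were 23 to 24 at day 7 and 19 to 23 at day 15, over the deposited values and the scaling alternatives. These alternatives were chosen after seeing the data, as were the role group sums with libraries left out. On the deposited values, 23.8% and 30.5% of all genes were lower in every library. The shares over all genes after the other scalings are not given here. The replicate numbers were not taken to pair the libraries, and no source says what a number shares. Deviations from the age mean correlated from -0.21 to 0.17 across genes between libraries of the same number. The values were 0.03, 0.10 and 0.17 for number 6, 0.00 for number 5 and -0.21 for number 2. Libraries of different numbers were not compared in this way, so these values cannot decide whether a number pairs libraries. A fit with fewer libraries or with the block has fewer degrees of freedom. Depth is unknown, which limits what can be said of low genes such as PSMD10.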
